A study of Mus musculus with 8 samples.

Results

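The genes described here encode 37 amino acid transporters of the SLC1, SLC3, SLC6, SLC7, SLC36, SLC38 and SLC43 families. They were taken from a fixed list of gene symbols and sorted by what they carry. All 37 were among the 23284 genes in the files, 36 had at least 1 read, and 29 passed the filter on low counts and were tested with 13358 genes in all. RNA was sequenced from 4 MaxKO and 4 control libraries of preSCs, mouse cells known from work on small cell lung cancer as precancerous neuroendocrine cells in culture. The MaxKO libraries came from polyclonal preSCs transduced with a guide RNA against Max, and the controls from polyclonal preSCs transduced with a control guide. Both were selected with puromycin and expanded. Cells of both groups were untreated and had the genotype Chga-GFP;Rblox/lox;p53lox/lox;p130lox on the strains 129/SvJ and C57BL/6, so the controls carry the same reporter and lox alleles. Nothing in the labels says whether the 4 libraries of a group came from different cultures, so p-values here reflect variation among libraries that could be technical.

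MAX is the obligate partner of MYC proteins and also pairs with the repressors MNT, MGA and MXD, and these pairs bind DNA at E-boxes. Amino acid transporters differ in substrate and in driving force. Some use the sodium gradient to concentrate amino acids in the cell, others exchange one amino acid for another, and the light chains of the SLC7 exchangers need a heavy chain of the SLC3 family to reach the cell surface. Several of these genes are known targets of MYC and of ATF4, the transcription factor of the amino acid stress response. The comparison asked how mRNA of these transporters differed in cells in which Max had been targeted.

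The depth was 14952291 to 19480947 counted reads in MaxKO libraries and 13711278 to 19804949 in controls. On these totals 3 reads correspond to 0.151 to 0.219 CPM (counts per gene scaled to the library's total). For all CPM of genes that follow, the library's total was also multiplied by a scaling factor (TMM) of 0.984 to 1.03. Max mRNA itself was at 42.3 to 68.0 CPM in MaxKO libraries and at 61.9 to 75.2 CPM in controls, so the groups overlapped. Its log2 fold change was -0.37 (SE 0.15), with adjusted p = 0.0955 by edgeR, and among the 18 alternatives it passed the threshold of 0.05 only without MaxKO library 4. The share of edited cells in the polyclonal populations was not measured here. The 8 neuroendocrine markers summed to 6146 to 6891 CPM in MaxKO libraries and 5376 to 7478 CPM in controls, with Neurod1 under the filter on low counts and Uchl1 called higher (0.41, adjusted p = 0.0496, edgeR). Calca among them was at 524 to 589 CPM in MaxKO libraries, and at 1980 and 1783 CPM in controls 1 and 2 and 399 and 467 CPM in controls 3 and 4 (adjusted p = 0.164). Markers of other cells were low: 7.62 to 9.44 CPM in MaxKO libraries and 7.03 to 9.11 CPM in controls for 7 genes of other lung epithelium (Krt5 at 0, and Hopx called higher by 0.71, adjusted p = 0.0458, edgeR), 2.46 to 4.13 and 2.97 to 5.64 CPM for 5 haematopoietic genes, and 0.887 to 1.22 and 1.01 to 2.12 CPM for 4 endothelial genes. The 6 fibroblast markers summed to 49.3 to 65.7 CPM in MaxKO libraries and 23.9 to 44.5 CPM in controls, nearly all of it Dcn, with Dcn called higher (55.5 and 32.3 CPM on average), Pdgfra called lower, Lum at 0 and Col1a1, Col1a2 and Col3a1 under the filter. The part of these cells in the results was not tested, and in such bulk samples fewer cells of a type and less RNA per cell cannot be told apart. Controls 3 and 4 had 23.3% and 23.4% of reads outside annotated exons and controls 1 and 2 had 18.5% and 18.6%, against 20.5% to 21.5% in MaxKO libraries. Values against each pair of controls are therefore given for the called members, several uncalled ones and the class sums whose groups did not overlap. A plot shows them for every tested member. The pairs were formed after these shares were seen. Controls 1 and 2 correlated at 0.995 and controls 3 and 4 at 0.983, so the pairs differ in spread. With only controls 1 and 2 kept, 44.6% of all tested genes were called, and with only controls 3 and 4, 20.7%. An adjusted p against 1 pair reflects the spread of that pair and of the MaxKO libraries only, and is given as a description.

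Of the 29 tested transporter genes, 7 rose in MaxKO cells and none fell, at an adjusted p under 0.05 in edgeR's quasi-likelihood test. Over all tested genes 23.1% were called, 10.9% as higher and 12.2% as lower, and the members' share of calls was 24.1%. With upper-quartile scaling the split over all genes was 1160 higher and 1965 lower, against 1457 and 1627, and that of the members 5 and 1, against 7 and 0. At an unadjusted p under 0.05, 12 were higher and 1, Slc7a2, lower, beside 2323 and 2416 of all 13358 genes. DESeq2 called 11 higher and 1, again Slc7a2, lower, beside 1671 and 1763 of the 13344 genes it gave an adjusted p. With limma-voom the members' counts were 7 and 0, beside 1518 and 1542 of all genes. The genes that rose were Slc1a5, Slc6a6, Slc6a9, Slc6a17, Slc7a1, Slc43a1 and Slc38a7, by 1.21 to 1.66-fold. The median log2 fold change of the 29 was 0.17, beside 0.00 over all tested genes, with 21 above 0 and 8 below. The MaxKO and control values did not overlap for 12 of the 29 (41.4%), 11 higher and 1 lower, beside 26.4% of all genes (13.4% higher and 13.1% lower). The calls of Slc1a5, Slc6a6, Slc6a17 and Slc43a1 held in each of 18 alternatives. Without MaxKO library 2, 3 or 4 or without control 2, 4 members rose (13.8%), beside 15.5% to 19% of all genes called in those fits. Without control 3, 11 rose and 1 fell (41.4%), beside 27.5% of all genes.

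**Figure D1:**
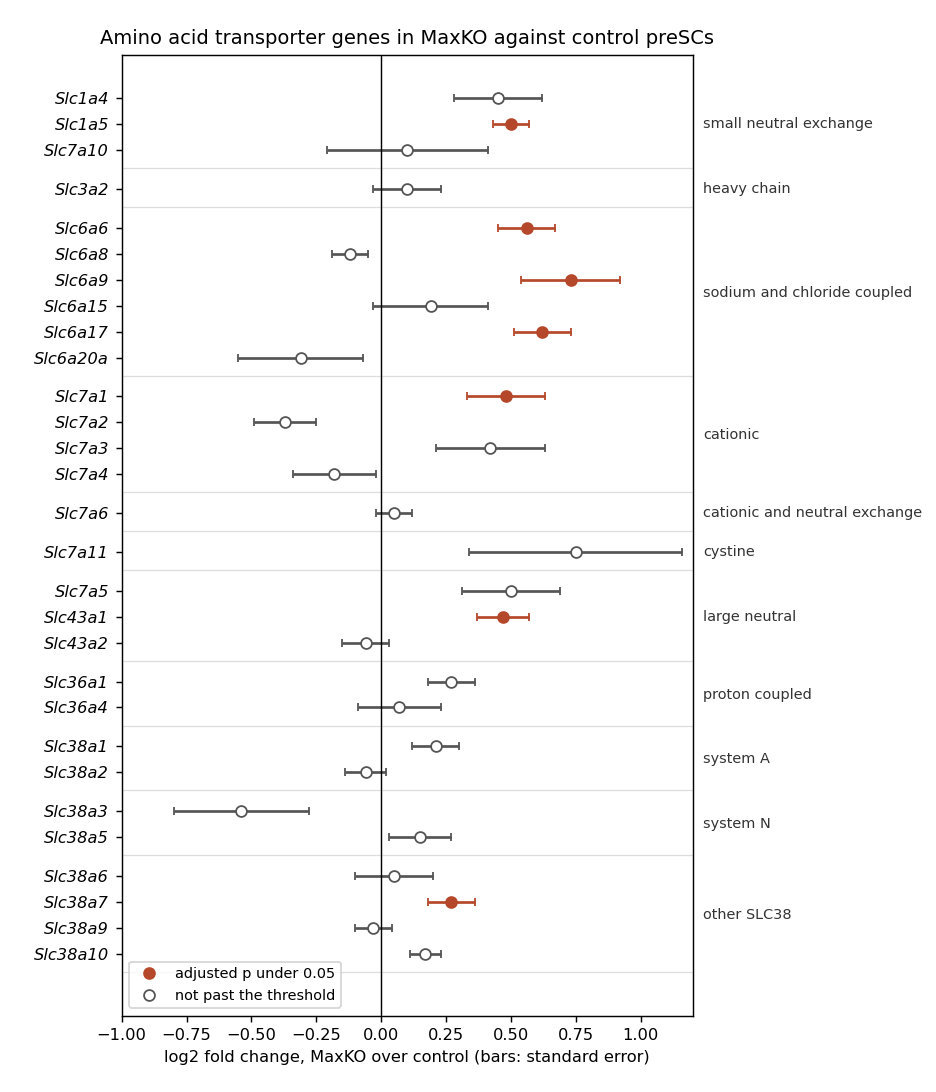
Log2 fold change of each of the 29 tested transporter genes in MaxKO over control cells, with its standard error, grouped by substrate class. Filled points passed an adjusted p of 0.05, and all 7 lie right of 0, between 0.27 and 0.73.

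Summed over the members of a class, mRNA was higher in every MaxKO library than in any control for the small neutral exchangers, the sodium and chloride coupled carriers, the large neutral carriers, the proton coupled carriers and the less studied SLC38 carriers. Such sums weight long genes more, and they are given as a description with no test. Some are mostly 1 gene. In MaxKO cells Slc36a1 averaged 245.9 of 261.5 CPM of the proton coupled class and Slc38a10 236.8 of 305.5 CPM of the other SLC38 carriers. Slc7a5 averaged 209.7 of 285.1 CPM of the large neutral class. None of these genes was called. The sodium and chloride coupled class holds all listed SLC6 members, whether or not each needs chloride. It summed to 575 ± 15.1 CPM in MaxKO cells and 409.9 ± 65.1 CPM in controls, and the small neutral exchangers to 273 ± 8.36 and 197 ± 20.3 CPM (SD, n = 4 each). The system A carriers held the most mRNA, at 846 ± 34.8 CPM in MaxKO cells and 800.5 ± 72.9 CPM in controls, and their groups overlapped. All 37 members together summed to 3175 ± 91.5 CPM in MaxKO cells and 2665 ± 174 CPM in controls (SD, n = 4 each). The log2 ratio of that sum was 0.25 with all 4 controls, 0.33 with controls 1 and 2 and 0.18 with controls 3 and 4. By pair, in the same order, the ratio was 0.68 and 0.15 for the large neutral class, 0.68 and 0.32 for the sodium and chloride coupled class and 0.60 and 0.36 for the small neutral class. It was 0.17 and 0.35 for the proton coupled class and 0.16 and 0.14 for the other SLC38 carriers.

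**Figure D2:**
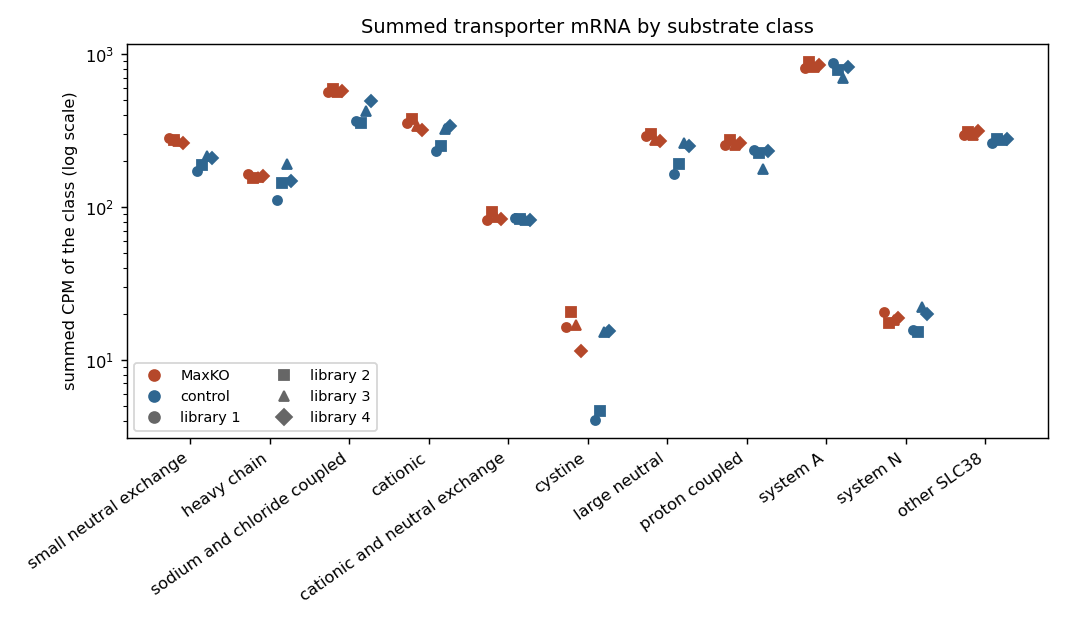
Summed CPM of each substrate class in each library, on a log scale, with MaxKO libraries left of controls. The MaxKO and control libraries separate for the small neutral, sodium and chloride coupled, large neutral, proton coupled and other SLC38 classes, and overlap for system A at 814 to 893 CPM in MaxKO and 705 to 879 CPM in control libraries; the acidic class, under 1 CPM in every library, is not drawn.

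Small neutral amino acids such as alanine, serine, cysteine and glutamine are exchanged across the plasma membrane by SLC1A4 (ASCT1), SLC1A5 (ASCT2) and SLC7A10 (Asc-1). Slc1a5, the glutamine exchanger gene, was at 187, 168, 176 and 177 CPM in MaxKO libraries 1 to 4 and at 122, 129, 131 and 120.5 CPM in controls 1 to 4. Every MaxKO library lay above every control, and the controls were nearly level. Slc1a5 rose by 0.50 on the log2 scale (SE 0.07, adjusted p = 0.000363, edgeR), the smallest adjusted p among the members, and the change was 0.49 against either pair of controls. Slc1a4, the alanine and serine exchanger gene, was at 95.1, 104, 95.05 and 84.1 CPM in MaxKO libraries and at 48.1, 59.4, 83.5 and 87.0 CPM in controls. Only MaxKO library 4 lay below a control, control 4, while controls 1 and 2 lay far lower. The difference of 0.45 (SE 0.17, adjusted p = 0.0763, edgeR) was not called, though it was with DESeq2 (0.0366) and without control 3 (0.55, 0.0274) or control 4 (0.58, 0.0251). Against controls 1 and 2 it was 0.82 (adjusted p = 2.27e-06), and against controls 3 and 4 only 0.14 (adjusted p = 0.334). Slc7a10 was low, at 1.81 ± 0.239 CPM in MaxKO cells and 1.73 ± 0.834 CPM in controls (SD, n = 4 each), and was not past the threshold (adjusted p = 0.853). In the GENCODE annotation of GRCm38, 11.2% of its exon bases overlap exons of Lrp3 on the opposite strand. The library kit does not keep the strand, so this low level is uncertain.

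The SLC6 carriers move their substrates with sodium, and many of them with chloride as well. Of 6 tested members, 3 rose and 3 did not pass the threshold. Slc6a6, which encodes the taurine transporter, was at 257, 276, 254 and 257 CPM in MaxKO libraries and 163, 148, 174 and 223 CPM in controls. Slc6a17, which encodes a neutral amino acid carrier of synaptic vesicles, was at 138, 149, 138 and 142 CPM in MaxKO libraries and at 79.7, 81.1, 91.3 and 118 CPM in controls. For both genes every MaxKO library was above every control, and control 4 was the highest control. Slc6a6 rose by 0.56 (SE 0.11, adjusted p = 0.00392) and Slc6a17 by 0.62 (SE 0.11, adjusted p = 0.00242) on the log2 scale in edgeR's test. Against controls 1 and 2 alone the changes were 0.75 and 0.82, and against controls 3 and 4 alone 0.39 and 0.43, each past the threshold.

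Slc6a9, the gene of the glycine transporter GlyT1, was at 86.9, 88.0, 88.1 and 93.2 CPM in MaxKO libraries and at 35.9, 41.1, 64.8 and 73.3 CPM in controls. All MaxKO libraries were above all controls, and the controls had an SD of 18.1 CPM, against 2.80 CPM in MaxKO libraries (n = 4 each). The rise of 0.73 (SE 0.19, adjusted p = 0.0205, edgeR) was the largest of a called member. It was 1.21 against controls 1 and 2 and 0.36 against controls 3 and 4, and its call ended without MaxKO library 2, 3 or 4 or control 2 (adjusted p up to 0.0568) and without the filter on low counts (0.0618). In the GENCODE annotation of GRCm38, 38.8% of the exon bases of Slc6a9 overlap exons of Ccdc24 on the opposite strand, and the library kit does not keep the strand, so reads of the 2 genes cannot be told apart there. Ccdc24, named after its values were seen, was at 152, 132, 131 and 138 CPM in MaxKO libraries and at 64.0, 62.8, 115 and 111 CPM in controls (0.65, adjusted p = 0.0315, edgeR). Leaving out a library ended its call in 6 of 8 cases, all but controls 3 and 4. The level of Slc6a9 is therefore uncertain.

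The remaining SLC6 genes did not pass the threshold. Slc6a8, the creatine transporter gene, was at 58.3, 56.2, 54.5 and 56.5 CPM in MaxKO libraries and at 60.8, 59.7, 61.5 and 62.4 CPM in controls. It was the only tested member with every MaxKO library below every control, although the log2 fold change was only -0.12 (SE 0.07, adjusted p = 0.231). Slc6a15, a carrier gene for branched-chain amino acids and proline, was at 22.3 ± 1.02 CPM in MaxKO cells and 19.7 ± 8.35 CPM in controls (SD, n = 4 each; adjusted p = 0.599), and control 3 alone held 32.1 CPM. Without control 3 its log2 fold change was 0.51 (adjusted p = 0.00341). Slc6a20a, a proline carrier gene with a close paralog, Slc6a20b, was at 4.82 ± 0.857 and 5.93 ± 2.06 CPM (SD, n = 4 each; adjusted p = 0.390) and is uncertain for that reason. Slc6a14 had no read in any library.

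**Figure D3:**
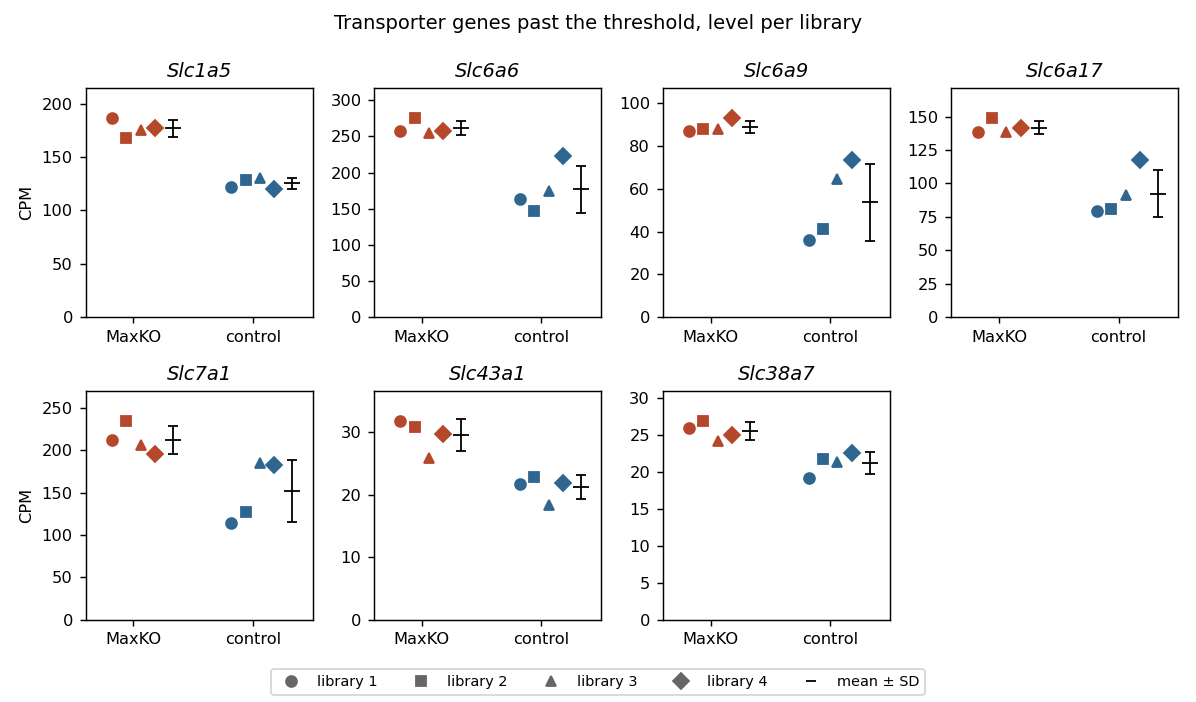
CPM of the 7 transporter genes past the threshold in each library, with the mean and SD of each group (n = 4). In every panel the 4 MaxKO libraries lie above the 4 controls, and for Slc6a9 and Slc7a1 controls 1 and 2 lie well below controls 3 and 4.

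Cationic amino acids such as arginine and lysine enter through SLC7A1, SLC7A2 and SLC7A3 (CAT1 to CAT3), whereas SLC7A4 is a relative with no established transport activity. Of these 4 genes 1 rose, and the other 3 did not pass the threshold. Slc7a1 was at 212, 235, 206 and 195 CPM in MaxKO libraries and at 115, 127, 184 and 183 CPM in controls. It rose by 0.48 on the log2 scale (SE 0.15, adjusted p = 0.0359, edgeR), but the call was lost when any MaxKO library or control 1 or 2 was left out (adjusted p up to 0.105) and with upper-quartile scaling (0.0576), and the change was 0.81 against controls 1 and 2 and 0.20 (adjusted p = 0.147) against controls 3 and 4. Slc7a3 was at 70.2, 69.8, 74.2 and 70.3 CPM in MaxKO libraries and at 31.5, 44.0, 68.7 and 68.7 CPM in controls. Its groups did not overlap, yet MaxKO values lay just above controls 3 and 4, and the difference of 0.42 was not past the threshold (SE 0.21, adjusted p = 0.175). Without control 3 it was (0.57, 0.0484). Against controls 1 and 2 it was 0.92 (adjusted p = 1.49e-06), and against controls 3 and 4 only 0.04 (adjusted p = 0.757).

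Slc7a2 was at 60.3, 60.6, 49.6 and 45.6 CPM in MaxKO libraries and at 77.3, 69.1, 55.6 and 76.6 CPM in controls. All MaxKO libraries lay below controls 1, 2 and 4, and control 3 lay among them. The log2 fold change of -0.37 (SE 0.12) was just short of the threshold (adjusted p = 0.0505, edgeR) and was past it without control 3 (-0.46, 0.00784), with upper-quartile scaling (-0.41, 0.0269), with DESeq2 (-0.37, 0.0288), with the filter at 1 CPM (-0.38, 0.0447) and with the replicate number as a block (-0.37, 0.0433). It was -0.44 (adjusted p = 0.00182) against controls 1 and 2 and -0.30 (adjusted p = 0.178) against controls 3 and 4. Slc7a4 was at 9.64 ± 0.969 CPM in MaxKO cells and 10.98 ± 2.48 CPM in controls (SD, n = 4 each; adjusted p = 0.462). Of Slc7a6 and Slc7a7, the y+L exchangers that trade cationic for neutral amino acids, Slc7a6 was level, at 85.9 ± 4.48 and 83.2 ± 1.29 CPM (0.05, SE 0.07, adjusted p = 0.668), and Slc7a7 had 0 to 6 reads in a library.

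Large neutral amino acids such as leucine are carried by SLC7A5 (LAT1) and SLC7A8 (LAT2), which need the heavy chain SLC3A2 (CD98), and by SLC43A1 and SLC43A2 (LAT3 and LAT4), which work without it. Slc43a1 was at 31.9, 30.8, 25.9 and 29.7 CPM in MaxKO libraries and at 21.8, 22.9, 18.4 and 21.9 CPM in controls. The groups did not overlap, and the rise of 0.47 (SE 0.10, adjusted p = 0.00470, edgeR) was 0.40 against controls 1 and 2 and 0.54 against controls 3 and 4. Slc43a2 was at 45.8 ± 4.22 and 47.6 ± 3.71 CPM (SD, n = 4 each; adjusted p = 0.700). Slc7a5 was at 219, 226, 205 and 189 CPM in MaxKO libraries and at 95.1, 124, 199 and 176 CPM in controls. Only MaxKO library 4 fell below the highest control, control 3, while controls 1 and 2 lay far below the rest. The difference of 0.50 (SE 0.19) was not past the threshold (adjusted p = 0.0877, edgeR). It was past it without control 3 (0.67, 0.0104), with DESeq2 (0.50, 0.0333) and against controls 1 and 2 (0.94), but was 0.16 (adjusted p = 0.293) against controls 3 and 4.

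Slc3a2, the shared heavy chain gene, was at 165, 154, 158 and 159 CPM in MaxKO libraries and at 111, 144, 190.5 and 148 CPM in controls. The MaxKO libraries lay within the range of the controls (0.10, SE 0.13, adjusted p = 0.612, edgeR). Per kilobase of exon, the level of Slc7a5 was 1.14, 1.26, 1.12 and 1.02 times that of Slc3a2 in MaxKO libraries and 0.737, 0.741, 0.898 and 1.025 times in controls. The ratio was lower in controls 1, 2 and 3 than in any MaxKO library, and control 4 lay just above MaxKO library 4. Slc3a1, the heavy chain gene of kidney and gut transporters, had 4 to 15 reads in a library, and Slc7a8 had 0 to 5.

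The promoter of Slc43a1 holds an E-box of the letters CACGTG, the site that MYC and MAX pairs are known to bind. In the RefSeq windows of 250 bases before to 50 bases after each start site (GRCm38.p6, a later build than the mm9 genome of the counts), found by symbol for 27 of the 37 members, CACGTG was present on either strand in 4 genes (14.8%), beside 8.09% of all 27025 genes with a window. Among tested genes the shares were 4 of 19 members (21.1%) and 11.7% of 9472 genes. No window was used for Slc1a5, Slc6a6, Slc6a8, Slc6a15, Slc7a2, Slc7a3, Slc7a4, Slc7a5, Slc38a1 and Slc38a3. The 4 were Slc43a1, Slc38a7, Slc36a1 and Slc38a5, of which Slc43a1 and Slc38a7 rose. Slc36a1 and Slc38a5 were not called (adjusted p = 0.0562 and 0.422, edgeR). Slc43a1 and Slc38a7 were 2 of the 5 called members with a window, and the windows of the called Slc6a9, Slc6a17 and Slc7a1 hold no CACGTG. The share of the motif among all called genes was not counted. The motif reads the same on both strands. It begins 64 bases before the start site in Slc43a1, 34 before in Slc38a7, 30 before in Slc38a5, and 31 and 3 before in Slc36a1. A match is a description of the letters, and binding was not measured here. The windows from 120 bases before to 50 after the start are shown, 5′ to 3′ on the strand of the gene with the E-box in capitals, for Slc43a1 at chr2:84840203-84840372 (plus strand), Slc38a7 at chr8:95853442-95853611 (minus strand) and Slc36a1 at chr11:55204220-55204389 (plus strand).
Slc43a1: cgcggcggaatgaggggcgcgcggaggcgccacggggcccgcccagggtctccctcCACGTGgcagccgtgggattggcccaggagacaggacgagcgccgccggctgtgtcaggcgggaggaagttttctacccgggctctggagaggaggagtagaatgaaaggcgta
Slc38a7: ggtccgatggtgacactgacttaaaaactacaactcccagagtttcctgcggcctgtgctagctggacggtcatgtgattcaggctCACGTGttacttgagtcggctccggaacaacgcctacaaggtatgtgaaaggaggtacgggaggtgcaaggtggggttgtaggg
Slc36a1: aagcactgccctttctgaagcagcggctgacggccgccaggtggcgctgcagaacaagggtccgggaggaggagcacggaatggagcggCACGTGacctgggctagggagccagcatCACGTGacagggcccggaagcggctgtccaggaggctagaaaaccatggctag

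Cystine enters through SLC7A11 (xCT), which also pairs with SLC3A2 and brings in the cysteine used for glutathione. Slc7a11 was at 16.3, 20.5, 16.9 and 11.5 CPM in MaxKO libraries and at 4.03, 4.63, 15.2 and 15.5 CPM in controls. Controls 1 and 2 lay far below every other library, and controls 3 and 4 lay among the MaxKO libraries. The log2 fold change of 0.75 (SE 0.41) had the largest error of any tested member and was not past the threshold (adjusted p = 0.231, edgeR). Against controls 1 and 2 it was 1.91 (adjusted p = 9.88e-07), and against controls 3 and 4 it was 0.08 (adjusted p = 0.798).

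The promoters of Slc7a11 and Slc1a4 are shown because, among the tested members, only their windows hold the ATF4 element described here. Both genes are known targets of ATF4 and both were low in controls 1 and 2. The letters TGATGNAA, the core of the composite C/EBP and ATF element through which ATF4 acts, were searched on both strands and were present in 3 of the 27 members (11.1%), Slc7a11, Slc1a4 and the untested Slc7a7, beside 4.51% of all genes with a window (10.5% of the 19 tested members and 2.67% of tested genes). Slc7a11 has a copy 66 bases before its start site and another, read on the opposite strand, 47 bases before it. Slc1a4 has 1, on the opposite strand, 4 bases before the start. Slc6a6, Slc6a8, Slc7a3, Slc7a4, Slc7a5 and Slc38a3 were also lower in controls 1 and 2 than in controls 3 and 4, but had no window. Of the members with a window, Slc3a2, Slc6a9, Slc6a17, Slc7a1, Slc38a5 and Slc38a6 were lower in controls 1 and 2 as well. Their windows do not hold these letters, and neither do those of the called members (0 of 5 with a window). A part of ATF4 in these levels was not tested. The sequences are from chr3:50443564-50443733 (minus strand) for Slc7a11 and chr11:20332664-20332833 (minus strand) for Slc1a4 (RefSeq, GRCm38.p6), written as above with the element in capitals.
Slc7a11: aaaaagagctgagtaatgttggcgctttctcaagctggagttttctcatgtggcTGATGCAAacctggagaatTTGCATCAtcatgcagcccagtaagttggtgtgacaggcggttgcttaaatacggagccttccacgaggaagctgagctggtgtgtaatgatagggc
Slc1a4: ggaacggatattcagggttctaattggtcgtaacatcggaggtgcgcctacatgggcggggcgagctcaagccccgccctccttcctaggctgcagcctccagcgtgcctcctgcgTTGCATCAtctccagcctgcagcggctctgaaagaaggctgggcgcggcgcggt

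**Figure D4:**
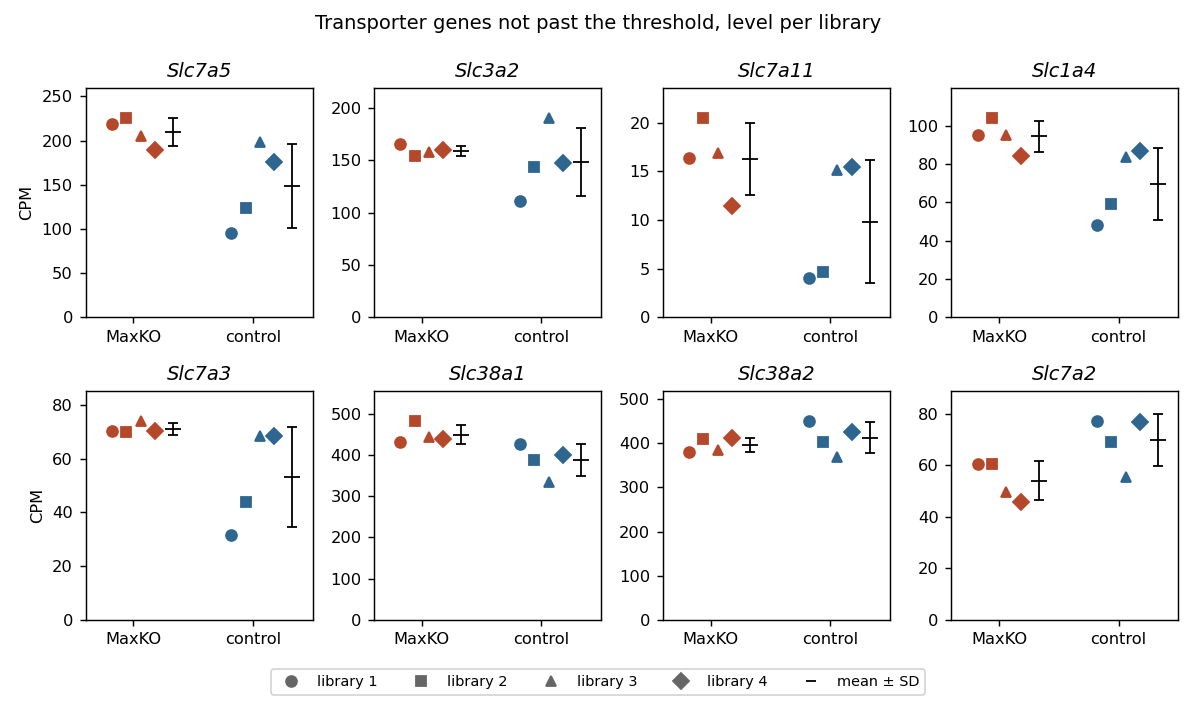
CPM in each library of 8 transporter genes that did not pass the threshold, with the mean and SD of each group (n = 4). Controls 1 and 2 lie below all other libraries for Slc7a5, Slc3a2, Slc7a11, Slc1a4 and Slc7a3, whereas Slc38a2 lies between 370 and 452 CPM in controls around its MaxKO values.

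The system A carriers concentrate small neutral amino acids, glutamine among them, with the sodium gradient. Slc38a1 (SNAT1) was at 433, 484, 443 and 439 CPM in MaxKO libraries and at 428, 389, 336 and 399 CPM in controls. Its groups did not overlap, but control 1 was close to the lowest MaxKO library and the difference of 0.21 was not past the threshold (SE 0.09, adjusted p = 0.101, edgeR). Slc38a2 (SNAT2), which amino acid starvation is known to induce, was at 381, 409, 384 and 412 CPM in MaxKO libraries and at 452, 403, 369.6 and 427 CPM in controls (-0.06, SE 0.08, adjusted p = 0.655). The MaxKO libraries lay inside the range of the controls. Slc38a4, the liver form, had 0 or 1 read in a library. The system N genes Slc38a3 (SNAT3) and Slc38a5 (SNAT5), which carry glutamine and histidine, were at 2.40 ± 0.212 and 16.3 ± 1.30 CPM in MaxKO cells, against 3.53 ± 1.44 and 14.8 ± 2.27 CPM in controls (SD, n = 4 each), with adjusted p = 0.162 for Slc38a3 and 0.422 for Slc38a5.

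Carriers of the lysosome return amino acids to the cytosol and take part in the sensing of amino acids by mTORC1. Slc38a7, a lysosomal glutamine carrier gene, was at 25.9, 26.9, 24.2 and 24.9 CPM in MaxKO libraries and at 19.1, 21.8, 21.3 and 22.5 CPM in controls. It rose by 0.27 (SE 0.09, adjusted p = 0.0399, edgeR), the smallest rise among the called members, with 0.32 (adjusted p = 0.0104) against controls 1 and 2 and 0.21 (adjusted p = 0.169) against controls 3 and 4. Its call ended in 10 of the 18 alternatives, among them those without any 1 MaxKO library or without control 1 or 2 (up to 0.123), the replicate block (0.0933) and upper-quartile scaling (0.0834). Slc38a9, the arginine sensor of the lysosome, was level at 30.7 ± 0.882 and 31.4 ± 1.56 CPM (SD, n = 4 each; -0.03, adjusted p = 0.788). The proton coupled carrier gene Slc36a1 (PAT1) was at 239.6, 255, 238 and 251 CPM in MaxKO libraries and at 222, 212, 166 and 217 CPM in controls. All MaxKO libraries were above all controls, control 3 being the lowest, and the difference of 0.27 (SE 0.09) was just short of the threshold (adjusted p = 0.0562, edgeR). It passed with DESeq2 (0.0295), without control 1 (0.0486) or control 4 (0.0436), and against each pair of controls alone (0.18 and 0.35, adjusted p = 0.0369 and 0.0342).

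Its relative Slc36a4 was at 15.6 ± 3.52 and 14.8 ± 2.16 CPM (SD, n = 4 each; adjusted p = 0.804). Slc38a10 was at 229, 239.5, 232 and 246 CPM in MaxKO libraries and at 204, 219, 209 and 208 CPM in controls. Its groups did not overlap, and the small difference of 0.17 was not past the threshold in edgeR's test (SE 0.06, adjusted p = 0.0731) but was with DESeq2 (0.0133). Slc38a6 was at 12.6 ± 1.32 and 12.2 ± 2.47 CPM (SD, n = 4 each; adjusted p = 0.839). The glutamate transporter genes Slc1a1, Slc1a2 and Slc1a3 (EAAC1, GLT-1 and GLAST) had 0 to 7 reads in a library.

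Per kilobase of exon in the GENCODE annotation, Slc38a2 was the most abundant tested transporter mRNA, at 85.1 ± 3.48 CPM per kb in MaxKO cells and 88.6 ± 7.51 in controls (SD, n = 4 each). It was followed by Slc1a5 (64.0 ± 2.77 and 45.4 ± 1.82), Slc7a5 (59.6 ± 4.58 and 42.2 ± 13.5) and Slc3a2 (52.6 ± 1.59 and 49.0 ± 10.8, MaxKO and controls in each case). The order of these 3 genes in controls lies within their spread. The lowest were Slc7a10 and Slc38a3, at 0.859 ± 0.113 and 0.675 ± 0.0596 CPM per kb in MaxKO cells and 0.819 ± 0.395 and 0.992 ± 0.405 in controls. These levels are approximate, since the sources used here do not give the gene models behind the counts.

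For a number of members the fold change differed with the control libraries used, and for others it hardly did. In 14 of the 29 tested members (48.3%) controls 1 and 2 were both below controls 3 and 4, and in 2 (6.90%), Slc6a20a and Slc7a6, both were above, beside 27.6% and 27.5% of all tested genes. The 14 included Slc7a11, whose mean was 3.54 times as high in controls 3 and 4 as in controls 1 and 2, Slc7a3 (1.82), Slc6a9 (1.79), Slc7a5 (1.71), Slc1a4 (1.59) and Slc7a1 (1.52). Slc1a5 (1.00), Slc43a1 (0.902) and Slc38a1 (0.901) were about level between the pairs or somewhat lower in controls 3 and 4. The median coefficient of variation of the tested members was 5.22% among MaxKO libraries and 18.4% among controls, against 7.62% and 12.4% over all tested genes. With only controls 1 and 2 kept, 15 members rose and 2, Slc7a2 and Slc6a20a, fell, 58.6% of the 29 beside 44.6% of all genes. With only controls 3 and 4 kept, 6 rose and 2, Slc7a4 and Slc38a3, fell, 27.6% beside 20.7%. The 2 fits share the MaxKO libraries, and the difference between them was not tested.

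**Figure D5:**
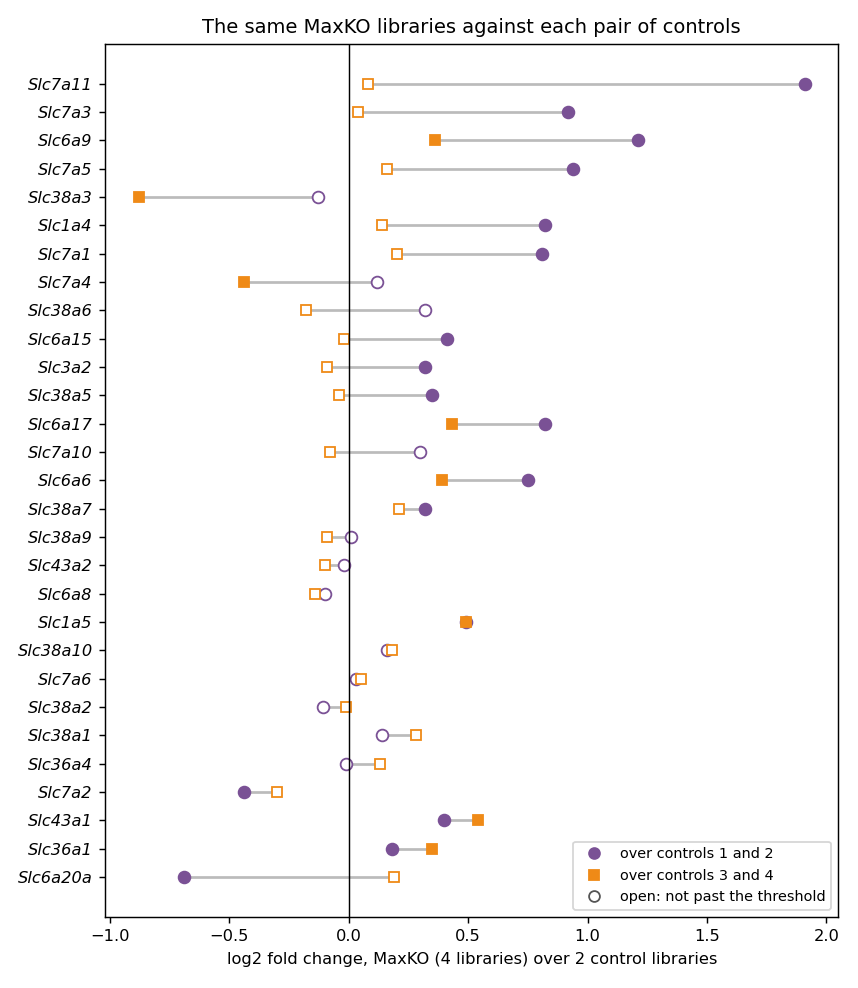
Log2 fold change of each tested member in the 4 MaxKO libraries over controls 1 and 2 (circles) and over controls 3 and 4 (squares), with members ordered by the first minus the second and symbols filled where the adjusted p was under 0.05. The gap is widest for Slc7a11 (1.91 and 0.08), and Slc1a5 gave 0.49 with either pair.

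Of 40 other amino acid transporter genes listed alongside the members, 17 were tested, of which 2 rose and 1 fell (17.6%, beside 23.1% of all genes), with a median log2 fold change of 0.08. The 3 are carriers of the inner mitochondrial membrane. Slc25a13, an aspartate and glutamate exchanger gene, was at 43.4, 47.4, 43.8 and 38.4 CPM in MaxKO libraries and at 24.2, 22.1, 32.1 and 33.2 CPM in controls. All MaxKO libraries lay above all controls (0.63, SE 0.13, adjusted p = 0.00484, edgeR, and 0.90 against controls 1 and 2 and 0.40 against controls 3 and 4). Its paralog Slc25a12 was at 72.5 ± 2.13 CPM in MaxKO cells and 60.6 ± 2.69 CPM in controls (SD, n = 4 each; 0.26, adjusted p = 0.0174), a call lost without MaxKO library 2 or 3, with the replicate block and against controls 3 and 4. Slc25a38, which brings glycine into mitochondria for haem synthesis, fell to 7.25, 8.16, 8.06 and 8.93 CPM in MaxKO libraries, against 16.3, 14.2, 13.9 and 11.7 CPM in controls. Every MaxKO library lay below every control (-0.79, SE 0.13, adjusted p = 0.000954), and the call held in each fit without 1 library.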

How the data were processed

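The authors deposited raw read counts for each gene symbol. The submitters' processing notes name bcl2fastq 1.8.4, TopHat2 2.0.12, HTSeq 0.6.1 and the genome mm9. The sources used here give neither the annotation nor the strand setting. HTSeq's summary lines were left out. Reads with no feature were 18.5% to 23.4% and ambiguous reads 1.00% to 1.11% of the sum of counted, ambiguous and no-feature reads.

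The members and lists were chosen with earlier results of these data known, so no set test, and no p over the list, is given. Genes were kept with filterByExpr and scaled with TMM factors, and CPM in the text use these factors, except the limits of 3 counts, which use library totals. MaxKO was compared with control by edgeR 4.0.16 under R 4.3.3 (glmQLFit with robust = TRUE, glmQLFTest, group as the only term, Benjamini-Hochberg adjustment over 13358 genes, threshold 0.05). SE was derived from the fold change and F statistic. Each called member, and the 6 most abundant uncalled ones, were to be given in every library. Slc1a4, Slc6a8, Slc7a2, Slc7a3, Slc7a11 and Ccdc24 were given so after their values were seen.

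Every test was repeated with RLE or upper-quartile scaling, without a filter, with a filter of 1 CPM in 4 libraries, and with DESeq2 1.42.0, limma-voom (limma 3.58.1), a fit without robust estimation, a replicate block, leaving out each library, and either pair of controls. No library pair agreed within sampling noise. The fit was tested on simulated data with no difference between control pairs. It recovered 61.2% of changes of 0.5 on the log2 scale, 97.0% of changes of 1 and 92.4% of changes of 2. Of 174 calls, 7 were false. Changes of the size seen in most members can therefore be missed. Per-kilobase levels used exon lengths of the GENCODE M21 basic set. Limits of 3 counts cover counting error only.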

Additional observations from a re-analysis of the deposited data

Results flagged for a closer look

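In 3 of the 58 groups of 4 libraries examined (29 tested members in each condition), 1 library stood far from the other 3 by Dixon's criterion, which chance alone meets in about 1 group of 20. All 3 were MaxKO libraries. Slc6a6 was at 275.5 CPM in MaxKO library 2 and at 254 to 257 CPM in the other 3. Slc7a10 was at 1.46 CPM in MaxKO library 2 and at 1.90 to 1.98 CPM in the others. Slc7a3 was at 74.2 CPM in MaxKO library 3, where the others were at 69.8 to 70.3 CPM.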

How the results depend on the processing

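The 18 alternatives left 4 of the 7 calls in place (Slc1a5, Slc6a6, Slc6a17 and Slc43a1), ended the call of Slc6a9, Slc7a1 or Slc38a7 in some, and called 13 of the 22 other tested members in at least 1. DESeq2 called 11 members higher and 1 lower (1671 and 1763 of 13344 genes in all), and with only controls 1 and 2 the members' counts were 15 and 2. With only controls 3 and 4, 2 were lower. Upper-quartile scaling, the filter at 1 CPM and the replicate block each gave 1 lower, Slc7a2. Leaving out 1 library gave 4 to 11 higher and 0 to 1 lower members. Over all genes, 2987 were higher and 3081 lower with only controls 1 and 2, and leaving out 1 library gave 963 to 1846 higher and 1139 to 1929 lower. The control pairs differ in these libraries as measured above, and the cause was not tested.

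Signs turned in 18 fits of 10 members, none past the threshold in the fit that turned. With only controls 3 and 4 these were Slc7a10 (-0.08), Slc3a2 (-0.09), Slc6a15 (-0.02), Slc6a20a (0.19), Slc38a5 (-0.04) and Slc38a6 (-0.18). With only controls 1 and 2 they were Slc7a4 (0.12), Slc36a4 (-0.01) and Slc38a9 (0.01), and with upper-quartile scaling Slc7a6 (0.00). Leaving out 1 library gave Slc7a10 -0.09 to 0.45, Slc3a2 -0.02 to 0.25, Slc36a4 -0.04 to 0.18 and Slc38a6 -0.07 to 0.14.

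The deviations of same-numbered libraries correlated at -0.20, -0.01, 0.00 and -0.11. These values show no pairing by number, but they cannot tell whether cultures or handling were shared. With the replicate block, 6 members were higher, without Slc38a7 (0.27, adjusted p = 0.0933), and 1208 genes were higher and 1324 lower. At a depth of 13711278 to 19804949 reads, the 8 members under the filter, with 0 to 15 reads in a library, could not be compared.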

Other observations

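Of 39 listed genes of amino acid sensing upstream of mTORC1 and of the GCN2 kinase, 36 were in the files and 35 were tested. By edgeR's quasi-likelihood test 2 rose and 5 fell (20%, beside 23.1% of all tested genes), with a median log2 fold change of 0.05. Nprl2, a subunit of the GATOR1 complex that holds mTORC1 off when amino acids are scarce, fell to 14.3, 15.5, 15.5 and 16.6 CPM in MaxKO libraries, against 22.6, 27.0, 30.3 and 23.8 CPM in controls (-0.74, SE 0.11, adjusted p = 0.000592). Every MaxKO library was below every control, and the change was -0.68 against controls 1 and 2 and -0.81 against controls 3 and 4. Sesn2, which encodes a leucine sensor, was at 36.5, 39.7, 35.7 and 38.9 CPM in MaxKO libraries and at 18.4, 23.5, 28.2 and 31.6 CPM in controls (0.57, SE 0.14, adjusted p = 0.0124), with 0.85 against controls 1 and 2 and 0.32 against controls 3 and 4. Rraga, a GTPase gene through which amino acids bring mTORC1 to the lysosome, rose to 106 ± 4.15 CPM in MaxKO cells, against 89.3 ± 2.97 CPM in controls (SD, n = 4 each; 0.25, adjusted p = 0.0170), a call lost without MaxKO library 3 and with the replicate block. The other 4 that fell, named after their values were seen, were Sesn1, Flcn, Fnip1 and Mlst8, and each lost its call without at least 3 of the libraries in turn.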
